A study of Danio rerio with 2 samples.

Results

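The genes described here carry the names of respiratory chain subunits of zebrafish mitochondria. They were chosen by name alone: a deposited symbol or Ensembl gene name beginning with NDUF, SDHA to SDHD, UQCR, CYC1, CYCS, COX4 to COX8, ATP5 or MT-, in either case. The rule found 111 of the 17668 genes in the table. Of these, 97 encode subunits of complexes I to V or cytochrome c, and 14 encode assembly factors and other proteins that carry such a name without being a subunit. The nuclear genome encodes 84 of the 97 subunits and the mitochondrial genome 13. Cells were sorted by flow cytometry from 5 dpf larvae of the ppv3b:GFP line, labelled Ppv3b-GFP, which express GFP predominantly in hair cells (HCs). The GFP(+) population is labelled hair cells and the GFP(−) population, which holds the remaining cells of the same transgenic larvae, non-hair cells. Each population gave 1 polyA RNA-seq library, and how many larvae were pooled for it is not given in the sources used here.

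The respiratory chain passes electrons from NADH and succinate to oxygen and pumps protons across the inner mitochondrial membrane, and ATP synthase (complex V) uses the resulting gradient to make ATP. Complexes I, III, IV and V combine subunits made from nuclear genes with a few made inside the organelle from mitochondrial DNA, whereas all subunits of complex II are nuclear. HCs of the ear and lateral line are mitochondrion-rich cells that move ions at high rates, and their mitochondria also take up calcium during mechanotransduction and synaptic release.

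All values are quantile-normalized reads per gene and are not divided by gene length, so genes are compared below by their numbers of reads and not by transcript level. After this normalization GFP(+) and GFP(−) carry identical sorted values, each library summing to 19035200 reads with a median of 186 and a floor of 20. The number of reads sequenced is therefore unknown. Since each population was sequenced as 1 library, none of the differences could be checked against replicates or tested. In GFP(+), 3329 genes (18.8%) carried values of 48 or less that were fixed by their place among tied genes. Of the 111 genes, 5 were among them: COX5B (ENSDARG00000068738), COX6A1 (ENSDARG00000054588), cox7a1, ATP5J2 and NDUFAF6. Their folds are given as bounds against 48 reads. None of the 111 was at the floor in GFP(−).

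Most respiratory chain genes had more reads in GFP(+) than in GFP(−). Of the 111 genes, 85 were higher in GFP(+) and 26 lower, where 47.5% of all genes were higher. Their median log2 ratio of GFP(+) to GFP(−) was 0.48 (quartiles 0.04 and 1.02), against −0.10 over all genes (quartiles −1.03 and 1.01). The differences were mostly small: 30 of the 111 were at least 2-fold higher, beside 25.3% of all genes, and 3 at least 2-fold lower, beside 25.7%. At 3-fold the numbers were 6 higher and 2 lower, where 16.9% and 16.4% of all genes passed. With GFP(+) values of 48 or less taken as bounds, 2 genes, COX4I2 and cox7a1, were at least 2-fold lower and COX4I2 alone at least 3-fold. Under these bounds COX5B (ENSDARG00000068738), counted as lower above, has no determined direction. Ratios differed by complex, with medians of 0.68 for complex I, 0.34 for complex II, 0.41 for complex III with cytochrome c, 0.16 for complex IV and −0.07 for complex V. Over nuclear genes alone these medians were 0.62, 0.34, 0.39, 0.15 and −0.26. The complexes also differed in read level, and nuclear subunits with more reads mostly had lower ratios, as described below. A mean of at least 1000 reads was held by 16 of 20 genes of complex V and 12 of 44 of complex I. The part of read level in the order of the complexes was not tested. The 13 mitochondrially encoded genes had a median of 1.13 and the 84 nuclear subunits one of 0.39. Because a pool of cells was measured, more cells of a type and more RNA per cell cannot be told apart.

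**Figure D1:**
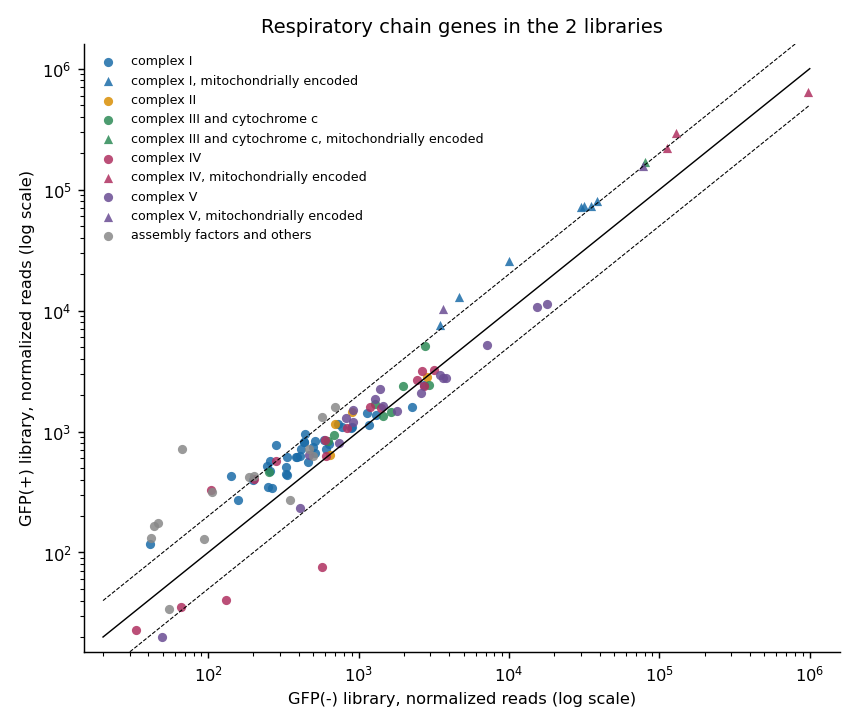
Normalized reads of the 111 genes in GFP(−) (horizontal) and GFP(+) (vertical), both on log scales, coloured by complex, with triangles for mitochondrially encoded genes. The solid line marks equal values and the dashed lines 2-fold differences. Of the 111 points, 85 lie above the solid line and 30 of these on or above the upper dashed line. COX4I2, at 575 and 76 reads, lies far below.

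Complex I, the NADH dehydrogenase that forms the main entry of electrons, was the complex whose genes most often had the higher value in GFP(+). Of its 44 genes, 41 were higher and 14 of these at least 2-fold, beside 47.5% and 25.3% of all genes. Of its 37 nuclear genes, 34 were higher and 7 at least 2-fold, and all 7 mitochondrially encoded genes were at least 2-fold higher. The 30 accessory subunits, which surround and stabilize the catalytic core, had a median log2 ratio of 0.66, and 29 were higher. NDUFC2, a membrane-arm accessory subunit, had 142.5 reads in GFP(−) and 430.5 in GFP(+), a log2 ratio of 1.60. The accessory subunit of the NADH-binding module, ndufv3, went from 41 to 116.5 reads (1.51), and ndufa11, a membrane subunit, from 283.5 to 778 (1.46). Further accessory subunits at least 2-fold higher were NDUFB6 with 256.5 and 573 reads, NDUFA6 with 443.5 and 957.5, NDUFA12 with 246.5 and 520.5, and ndufa7 with 198 and 397. Another 22 accessory subunits lay between 0.25 (NDUFB5) and 0.92 (NDUFAB1). The single accessory subunit with the lower value was NDUFA10, with 1174 reads in GFP(−) and 1126 in GFP(+) (−0.06).

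The 7 nuclear core subunits, which hold the flavin and the iron-sulphur clusters that carry electrons to ubiquinone, differed less, with a median log2 ratio of 0.25. NDUFV2 had the highest ratio of them, with 383.5 and 617 reads (0.69). NDUFS3 (0.32), NDUFS8 (0.26) and NDUFS7 (0.25) were also higher in GFP(+). NDUFV1 and NDUFS1 were lower. NDUFV1, which binds NADH and the flavin, had 2734 and 2445.5 reads (−0.16). NDUFS1, the largest subunit and the carrier of several iron-sulphur clusters, had 2252.5 reads in GFP(−) and 1586.5 in GFP(+) (−0.51). Within complex I the accessory subunits thus covered −0.06 to 1.60 and the nuclear core subunits −0.51 to 0.69, ranges that overlap.

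Complex II, succinate dehydrogenase, links the tricarboxylic acid cycle to the chain, and its 4 genes split evenly. SDHB, the iron-sulphur subunit, had 906 reads in GFP(−) and 1454 in GFP(+) (0.68). SDHC, a membrane anchor, had 702.5 and 1160.5 (0.72). The flavoprotein SDHA, which oxidizes succinate, had nearly equal values of 2833 and 2812.5 (−0.01). The second anchor, SDHD, had 644 and 636 (−0.02). Each functional pair, the catalytic SDHA and SDHB and the anchors SDHC and SDHD, therefore held a gene with near-equal reads and a gene with more reads in GFP(+), 1.60-fold for SDHB and 1.65-fold for SDHC.

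In complex III, which passes electrons from ubiquinol to cytochrome c, the subunits that carry electrons were higher in GFP(+) and the large core proteins slightly lower. The Rieske iron-sulphur protein was annotated as a pair of UQCRFS1 genes, with 253.5 and 465 reads for ENSDARG00000007745 (0.88) and 622 and 833 for ENSDARG00000077402 (0.42). CYC1, cytochrome c1, had 1983.5 and 2383.5 reads (0.27). MT-CYB, the mitochondrially encoded cytochrome b, had 79912.5 and 168404 (1.08). The core proteins, which carry no redox centre, were UQCRC1 with 2953 and 2447 reads (−0.27), uqcrc2a with 1634 and 1440 (−0.18) and UQCRC2 with 1458.5 and 1341.5 (−0.12). These ratios lay near the median of all genes, −0.10. In the list order described below, the neighbours of UQCRC1, uqcrc2a and UQCRC2 had median log2 ratios of 0.45, 0.28 and 0.40. These neighbours were of all read levels, so they give no comparison at the level of the core proteins. At equal place, genes with more reads had lower ratios, as described below. Among the small subunits, the hinge protein UQCRH (0.39) and the ubiquinone-binding UQCRQ (0.46) were higher. Cytochrome c, the mobile carrier between complexes III and IV that also triggers apoptosis when released, was represented by cycsb, with 2745.5 reads in GFP(−) and 5116 in GFP(+) (0.90).

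The nuclear subunits of complex IV, cytochrome c oxidase, centred close to equal values, with a median log2 ratio of 0.15 over 16 genes, but ranged from −2.92 to 1.66. Of the 16, 3 were at least 2-fold higher and 2 at least 2-fold lower, beside 25.3% and 25.7% of all genes. The 3 were ndufa4b with 104 and 328.5 reads (1.66), COX5A (ENSDARG00000017906) with 201 and 408.5 (1.02), and COX7A2 (ENSDARG00000086341) with 280.5 and 566 (1.01). The name of ndufa4b is that of a complex I gene, although its product in mammals is a subunit of complex IV. The subunits with the most reads were nearly equal. COX4I1, the main form of the largest nuclear subunit, had 3196 and 3239.5 reads (0.02), and COX5B (ENSDARG00000015978), which binds zinc, had 2640.5 and 3147.5 (0.25). Small differences were also seen for cox8a (0.42), cox6c (0.16), cox6b2 (0.14) and cox6b1 (0.04), and cox6a1 was lower, with 2719.5 and 2363.5 reads (−0.20).

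The lowest ratios of complex IV belonged to COX4I2, cox7a1 and the second copies of COX6A1 and COX5B. COX4I2, the form of subunit 4 known from lung and from oxygen-sensing cells, had 575 reads in GFP(−) and 76 in GFP(+), 7.57-fold lower (−2.92). The gene for the heart and skeletal muscle form of subunit 7A, cox7a1, had 131.5 reads in GFP(−) and 40.5 in GFP(+), at least 2.74-fold lower. COX6A1 (ENSDARG00000054588) had 65.5 and 35.5 reads, at least 1.36-fold lower, and the second COX5B had 33 and 23, both below 48. Markers of muscle were present in both libraries. The 22 skeletal muscle markers summed to 5841.5 reads in GFP(−) and 6755 in GFP(+). Of these, 11 were higher and 11 lower, beside 47.5% and 52.4% of all genes. None was at the floor in GFP(−), 1 was at the floor in GFP(+) and 4 had 48 reads or less there. The 7 heart markers summed to 579.5 and 403 reads with 2 higher and 5 lower, and 4 of the 7 had 48 reads or less in GFP(+). With such values taken as bounds, TNNI2 (ENSDARG00000035958), myhz1.2, cmlc1 and ACTC1 have no determined direction. The heart median was −0.85 by deposited values and 0 under the bounds. The part of muscle cells in the isoform values was not tested.

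The subunits of complex V were evenly divided, with 10 of 20 genes higher and 10 lower, beside 47.5% and 52.4% of all genes. The sign of the complex V median of −0.07 depended on the processing. Its nuclear subunits with the most reads had the lower values in GFP(+). ATP5F1A, the alpha subunit of the catalytic F1 head, had 15284 reads in GFP(−) and 10639.5 in GFP(+) (−0.52), and the beta subunit ATP5F1B, which carries the catalytic sites, had 17961.5 and 11287 (−0.67). Of the other F1 subunits, ATP5F1C had 3485.5 and 2946.5 reads (−0.24), whereas the small ATP5F1D (0.17) and atp5f1e (0.40) of the central stalk were higher. The rotating c-ring was represented by atp5mc3b with 7135.5 and 5230.5 reads (−0.45), atp5mc1 with 1789 and 1471.5 (−0.28) and ATP5MC3 with 746.5 and 796 (0.09).

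The peripheral stalk, which keeps the F1 head from turning with the rotor, held genes on both sides. ATP5PB had 3810 and 2775.5 reads (−0.46) and ATP5PO 3659 and 2753.5 (−0.41), while ATP5PF, a small stalk subunit, had 1378 and 2250.5 (0.71). The 7 small membrane subunits, several of which hold ATP synthase dimers together, had a median of 0.44. Of these, atp5meb (0.69), atp5mf (0.66), atp5mj (0.53) and atp5md (0.44) were higher in GFP(+), and ATP5MG was lower, with 2592.5 and 2091.5 reads (−0.31). The 2 mitochondrially encoded subunits, which sit in the membrane sector beside the c-ring, were both over 2-fold higher.

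**Figure D2:**
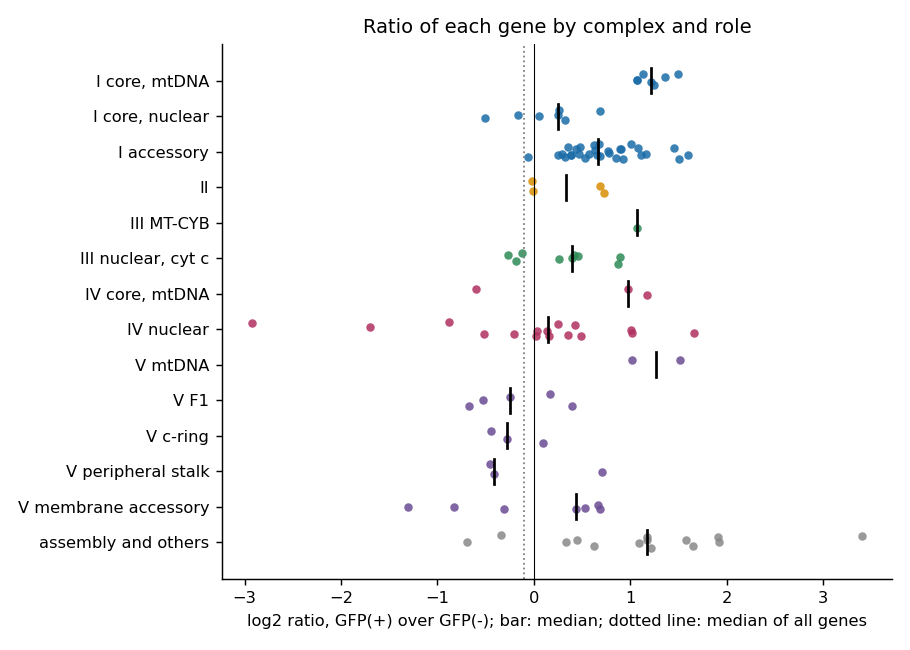
Log2 ratio of GFP(+) to GFP(−) for each of the 111 genes, grouped by complex and role, with deposited values also for the 5 genes of 48 reads or less in GFP(+). Points are genes, bars are medians of the group and the dotted line is the median of all genes at −0.10. The groups of mitochondrially encoded genes have medians of 0.98 or more, and the F1 head, c-ring and peripheral stalk have medians below the dotted line.

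Mitochondrial DNA encodes 13 proteins, all of them chain subunits, and all 13 genes were in the table. They held 8.06% of all reads in GFP(−) and 9.68% in GFP(+). Of the 13, 12 were higher in GFP(+) and 11 of them at least 2-fold, beside 47.5% and 25.3% of all genes. The log2 ratios of the 12 lay within a narrow range of 0.98 to 1.51. The highest ratios were those of mt-atp8 and MT-ND3. The ATP synthase subunit mt-atp8 had 3624 and 10354.5 reads (1.51), and MT-ND3, a complex I membrane subunit, had 4626.5 and 13036 (1.49). The other membrane subunits of complex I were MT-ND1 with 38410 and 80537.5 reads (1.07), MT-ND2 with 31330.5 and 72920 (1.22), MT-ND4 with 34926.5 and 73615 (1.08), mt-nd4l with 3476.5 and 7622.5 (1.13) and MT-ND5 with 30042 and 71190 (1.24). MT-ND6, which in vertebrates lies alone on the opposite strand, had 10063.5 and 25830 reads (1.36) and so did not stand apart from the others. MT-ATP6, which forms the proton channel of ATP synthase, had 77651.5 and 157437 reads (1.02).

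The subunits of cytochrome c oxidase were divided. MT-CO2, which receives electrons from cytochrome c, had 112367 and 221762 reads (0.98), and MT-CO3 had 129691 and 293774 (1.18). MT-CO1, the catalytic subunit with both haem groups, had 978726 reads in GFP(−) and 646382 in GFP(+) (−0.60). These are the largest and the second largest value that the normalization allows, and both occur in each library. MT-CO1 ranked 1 in GFP(−) and 2 in GFP(+), where the keratin gene krt4 ranked 1, so its ratio is that of the top pair of values in the table. Without MT-CO1 the other 12 genes held 2.92% of all reads in GFP(−) and 6.29% in GFP(+), 2.15 times as much. Among the 30 highest values of the table, 5 belonged to mitochondrially encoded genes in GFP(−) and 9 in GFP(+). Whether reads were counted by strand is not given in the sources used here. Nor is how reads in overlaps of neighbours, such as mt-atp8 and MT-ATP6 or mt-nd4l and MT-ND4, were assigned, so their values may be affected.

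**Figure D3:**
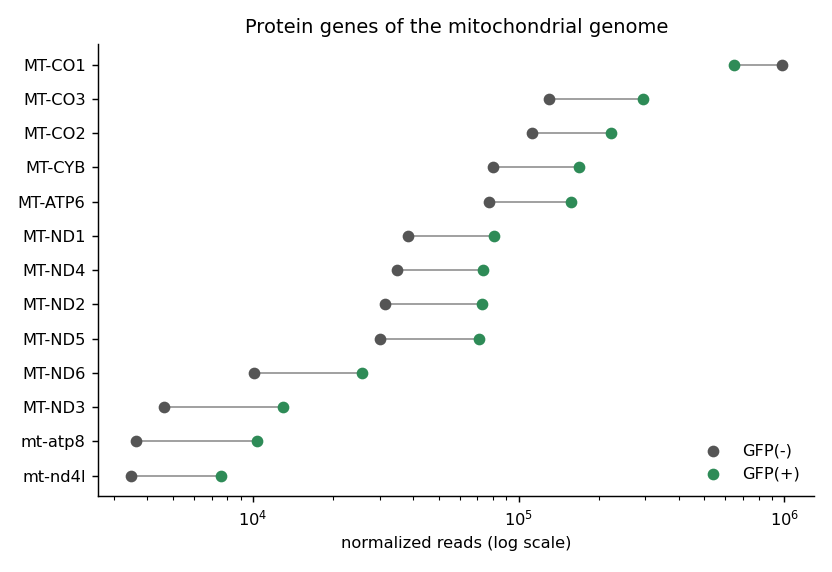
Normalized reads of the 13 mitochondrially encoded genes in GFP(−) (grey) and GFP(+) (green), on a log scale and ordered by the GFP(−) value. Each line joins both values of a gene. In 12 genes the GFP(+) value is the higher, and MT-CO1, with 978726 and 646382 reads, is the exception.

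The mitochondrial and nuclear genes thus contributed very unequally to the reads. All 111 genes held 8.72% of reads in GFP(−) and 10.4% in GFP(+), whereas the 84 nuclear subunits held 0.641% and 0.635%. The median nuclear subunit was higher in GFP(+) while the summed nuclear reads were not, and ATP5F1A, ATP5F1B and atp5mc3b, the 3 nuclear subunits with the most reads, were among the genes lower there.

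The 14 genes that are not subunits had a higher median log2 ratio than the nuclear subunits of any complex, 1.18. Of the 14, 12 were higher and 9 of these at least 2-fold, beside 47.5% and 25.3% of all genes. NDUFAF2, an assembly factor that binds a late intermediate of complex I, had 67.5 reads in GFP(−) and 715 in GFP(+), 10.6-fold higher (3.40). It was followed by NDUFAF4, also a complex I assembly factor, with 43.5 and 165 reads (1.92). NDUFAF5, which modifies NDUFS7, had 200.5 and 426 reads (1.09), NDUFAF3 467 and 720 (0.62) and NDUFAF7 93.5 and 128 (0.45). The complex I factors were not uniformly higher: NDUFAF1 had 348 and 274 reads (−0.34), and NDUFAF6 had 55 and 34, at least 1.15-fold lower. All 4 complex II assembly factors, which insert the flavin and the iron-sulphur clusters, were at least 2-fold higher. SDHAF3 had 46.5 and 175.5 reads (1.92), sdhaf1 42 and 132 (1.65), SDHAF4 105.5 and 315.5 (1.58) and SDHAF2 187.5 and 423.5 (1.18). Several of these genes had fewer than 50 reads in GFP(−), and with a pseudocount of 100 the median of the 14 genes was 0.84. COX7A2L, a factor that joins complexes III and IV into supercomplexes, had 569 and 1317.5 reads (1.21). The inhibitor of ATP synthase, which blocks ATP hydrolysis when the gradient fails, was annotated as a pair of genes, atp5if1b with 698.5 and 1581 reads (1.18) and atp5if1a with 496 and 623.5 (0.33).

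In the table, 14 subunits or factors were represented by 30 genes, called copies here. The copies include isoform genes of 1 subunit, such as COX4I1 and COX4I2 or cox7a1 and COX7A2, as well as duplicated genes. In 6 of the 14 the deposited values placed the copies on opposite sides of equal values. For subunit 4 of complex IV, COX4I2 held 15.2% of the summed COX4 reads in GFP(−) and 2.29% in GFP(+), COX4I1 the rest, and the sum had a log2 ratio of −0.19. For subunit 7A, cox7a1 held 13.0% and 2.79%, while both COX7A2 genes were higher in GFP(+), ENSDARG00000053217 with 601.5 and 846.5 reads, and the sum had a ratio of 0.52. For the membrane subunit e of ATP synthase, atp5mea, with 411 and 231.5 reads (−0.83), held 30.8% and 13.4%, and its partner atp5meb, with 924 and 1492 (0.69), took the larger share in both libraries. In subunit f, ATP5J2 had 49.5 and 20 reads, at least 1.03-fold lower, beside 823 and 1304.5 for atp5mf. The remaining divided sets were the COX5B genes and the c-ring genes, whose sum had a ratio of −0.37. The lower COX5B copy was below 48 reads in both libraries, so its direction is not determined under the bound.

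In the other 8 sets the copies lay on the same side. Both copies of COX5A were higher in GFP(+), cox5aa with 833 and 1064.5 reads (0.35). So were NDUFAB1, the mitochondrial acyl carrier protein, with 435.5 and 826.5 (0.92) and ndufab1b with 335.5 and 438 (0.38), as well as NDUFA9 (0.67) and ndufa9b (0.36), the UQCRFS1 genes, the inhibitor genes and cox6b1 and cox6b2. Both UQCRC2 genes and both COX6A1 genes were lower. How reads matching near-identical copies were counted is not given in the sources used here. The copies' own values and their sums may both be affected.

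**Figure D4:**
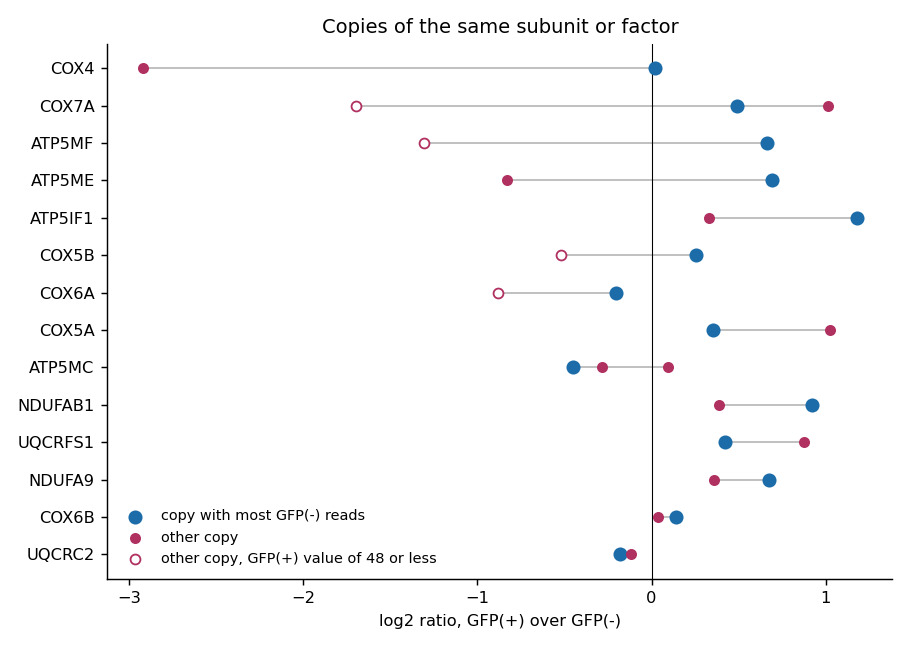
Log2 ratio of GFP(+) to GFP(−) for each copy of the 14 subunits or factors with more than 1 gene. Blue points are the copy with the most GFP(−) reads, red points the others, open points copies of 48 reads or less in GFP(+), and lines join the copies. COX4 shows the widest separation, from −2.92 to 0.02.

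From 100 reads upwards, classes of nuclear subunits with more reads had lower median ratios. All 5 with a mean of both libraries between 100 and 300 reads were higher, with ndufa7 as the median gene. Among the 41 between 300 and 1000 reads, 38 were higher and the median was 0.53. Among the 25 between 1000 and 3000 reads, 15 were higher and the median was 0.16. Of the 8 at 3000 reads or more, 6 were lower, with medians of −0.33 for the 6 below 10000 and −0.60 for ATP5F1A and ATP5F1B above it. The 5 below 100 reads did not follow this order, with 4 lower by deposited values and a median of −0.88. These 4 had 48 reads or less in GFP(+), so this median rests on tied values. All genes below 100 reads had a median of −0.44, with 38.2% higher. Over all genes of the other levels the medians moved less, from 0.07 between 300 and 1000 reads to −0.01, −0.12 and −0.21 in the higher classes. From 100 reads upwards, the shares of all genes that were higher were 52.0%, 52.1%, 49.6%, 46.1% and 40.2% by class. Spearman's rho of the mean level with the log2 ratio was −0.40 across the 84 nuclear subunits and −0.62 across the 80 with over 48 reads in GFP(+), a filter that removes only genes low in GFP(+). This is a description across genes, which share both libraries and the normalization and are not replicates, and the mean contains the values of the ratio itself.

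The table lists the 13910 genes without a deposited symbol in an order that follows a ranking from GFP(+) to GFP(−), and what set this order is not given in the sources used here. Pairs were formed only from genes with over 48 reads in GFP(+) and above the floor of 20 in GFP(−). In all 53503 such pairs that share a GFP(+) value and differ in GFP(−), the gene with the lower GFP(−) value came first. In 40050 of 40064 such pairs that share a GFP(−) value and differ in GFP(+), the gene with the higher GFP(+) value came first. The order was not that of the deposited ratio, with which its Spearman's rho was −0.95. Of the 91 respiratory chain genes in this list, 84 stood at or before place 6955, the middle of the list, and the median place was at 27.5% of it. The 13 mitochondrially encoded genes stood at places 1002 to 1727, with MT-CO1 first among them in spite of its negative deposited ratio.

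Neighbours in the list had mostly higher ratios than the respiratory chain genes themselves. The median log2 ratio of the 100 genes on each side had a median of 0.73 over the 91 genes, whose own median was 0.43, 2.31 over the mitochondrially encoded genes and 0.43 over complex V. Of 19 listed genes with a ratio below 0 and over 48 reads in GFP(+), 16 had neighbours with a median above 0. Neighbours were also divided by level, keeping only those with over 48 reads in GFP(+) and above the floor in GFP(−). Near ATP5F1A, at place 5032, neighbours with a mean under 300 reads had a median of 0.79 (70 genes) and those of 1000 reads or more one of −0.30 (51 genes). Near NDUFS1 the medians were 0.58 (100 genes) and −0.50 (33 genes). At equal place, genes with more reads thus had lower deposited ratios, and across the listed nuclear subunits with over 48 reads in GFP(+) the mean level had a rho of −0.01 with the place and of −0.52 with the ratio (66 genes).

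**Figure D5:**
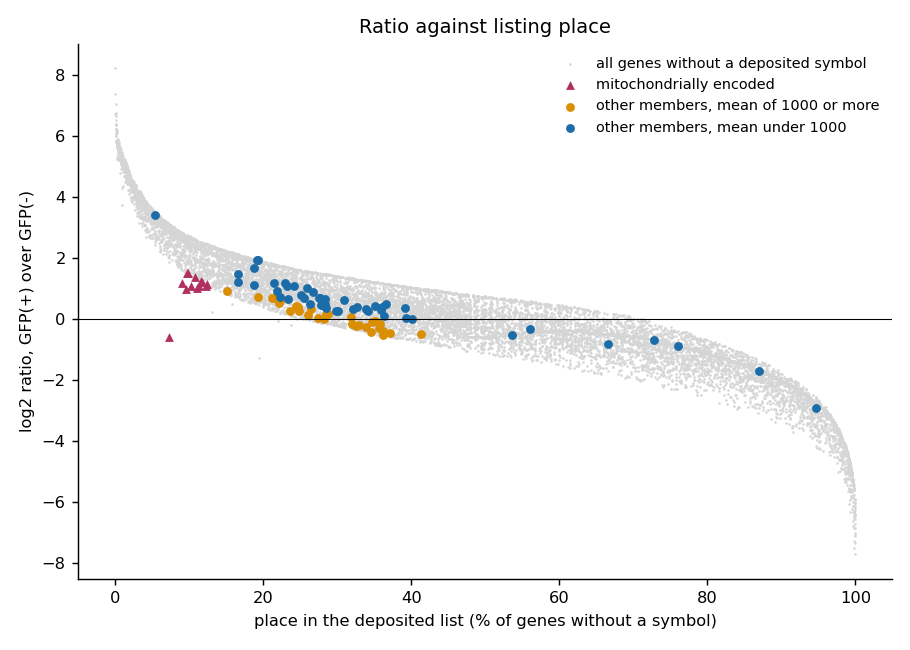
Log2 ratio of GFP(+) to GFP(−) against the place in the deposited list, in percent of the 13910 genes without a symbol. Small grey points are all genes, red triangles mitochondrially encoded genes, orange and blue points other respiratory chain genes with a mean of 1000 reads or more and under 1000. The red triangles lie at the lower edge of the grey band, MT-CO1 below it at −0.60, and orange points lie mostly below blue points of similar place.

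Several other groups of mitochondrial genes had more members higher than lower in GFP(+). Their counts stand beside 47.5% of all genes that were higher. Of 34 assembly factors outside the name rule, 30 were higher in GFP(+), with a median of 0.84. COA7, a complex IV assembly factor, had 85 and 511 reads (2.59), and OXA1L, the insertase for mitochondrially made subunits, 562 and 272.5 (−1.04). The mitochondrial ribosome translates the mitochondrially encoded subunits. Genes named for its proteins, by the prefixes MRPL and MRPS, had a median of 0.45 with 54 of 67 higher. They ranged from mrps18c at 57.5 and 236 reads (2.04) to MRPL48 at 123 and 66 (−0.90). The 67 include kgd4 (0.53), which carries another Ensembl name. Protein import genes, matched by the prefixes TOMM and TIMM, had a median of 0.27 with 14 of 19 higher. They ranged from tomm34 at 216.5 and 862 (1.99) to tomm40l at 447 and 213 (−1.07). The 19 include timmdc1 (0.75), which was also counted among the 34 assembly factors. Genes of cristae and dynamics had a median of 0.24 with 13 of 18 higher. They ranged from the fission gene FIS1 with 233 and 830 reads (1.83) to the fusion gene MFN1 (ENSDARG00000011884) at 117.5 and at the floor of 20. Fusion genes lay on both sides, with OPA1 (1.19), mfn1b (0.59) and MFN2 (0.22) higher. Another MFN1 gene, ENSDARG00000091745, had 45 and 20 reads, both below 48. Genes for mitochondrial calcium uptake had a median of 0.81 with 4 of 6 higher, led by MCUR1, a regulator of the uniporter, with 95.5 and 339 reads (1.83), while a MICU3 gene, ENSDARG00000074255, had 37 and 20 reads. Genes that maintain and transcribe mitochondrial DNA were divided, with 4 of 9 higher and a median of −0.04. TFB1M, a ribosomal RNA methyltransferase, had 123.5 and 315.5 reads (1.35), and TFAM, which packages mitochondrial DNA, 326.5 and 165.5 (−0.98).

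Counts of lower genes for fuel supply, transport and regulation stand beside 52.4% of all genes that were lower in GFP(+). The tricarboxylic acid cycle had 9 of 13 genes lower in GFP(+) and a median of −0.55, from IDH3G, of the NAD-dependent isocitrate dehydrogenase, at 559.5 and 907.5 reads (0.70) to the NADP-dependent IDH2 at 5239 and 1336.5 (−1.97). Pyruvate entry had 9 of 16 lower and a median of −0.45, which was 0 with the low GFP(+) values taken as bounds, with the carrier MPC1 at 309 and 766.5 reads (1.31) and PDK2 (ENSDARG00000059054), a kinase that inhibits pyruvate dehydrogenase, at 7247.5 and 657.5 (−3.46). Of these 16 genes, 4 had 48 reads or less in GFP(+). Glycolysis and lactate had 18 of 29 lower and a median of −0.81, from the phosphofructokinase PFKP at 324 and 873 reads (1.43) to PKLR, the liver and red cell pyruvate kinase, at 5316.5 and 83.5 (−5.99). Carriers and channels had 11 of 16 lower and a median of −0.59, with the ADP/ATP carrier SLC25A4 at 26 and 145.5 reads (2.48) and the uncoupling protein UCP1 at 32159 and 781.5 (−5.36). Nuclear regulators of mitochondrial genes had 9 of 15 lower and a median of −0.38. A PPARA gene (ENSDARG00000091024) was at the floor of 20 in GFP(−) with 112.5 reads in GFP(+), and the coactivator gene pprc1 had 4799.5 and 956 (−2.33). Peroxide and superoxide removal had 5 of 9 higher, beside 47.5% of all genes, and a median of 0.21. Its genes ranged from the glutathione peroxidase gpx1b at 74.5 and 1431.5 reads (4.26) to gpx4a at 3907.5 and 212 (−4.20).

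The populations also differed in markers of other cell types, and the part of these cells in the respiratory chain values was not tested. HC markers were higher in GFP(+) for 17 of 18 genes, with a median of 4.37. Superficial epidermis markers were higher for 10 of 10, with a median of 4.32, where 47.5% of all genes were higher. The epidermis markers held 0.684% of reads in GFP(−) and 8.82% in GFP(+). Ionocytes are mitochondrion-rich cells of the skin, and 7 genes matched the 11 marker symbols sought for them. Of these 7 markers, 6 were higher in GFP(+), with sums of 3835 and 3861.5 reads and a median of 0.97, none at the floor. Among the 6, slc9a3.2 (0.02) and foxi3a (0.21) differed least. The exception, ca2, had 2552 and 1108 reads and made up most of the GFP(−) sum. The symbol RHCGB was sought without a match. A gene named RHCG, outside the list, had 2499 reads in GFP(−) and 95112.5 in GFP(+) (5.25). The sums therefore cover only the 7 matched genes and do not measure the ionocyte content of the libraries. The 11 liver markers held 305164 reads in GFP(−) and 4779.5 in GFP(+). All 15 neuron and 12 photoreceptor markers were lower in GFP(+), with medians of −2.73 and −4.26, where 52.4% of all genes were lower.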

How the data were processed

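The 2 polyA RNA-seq libraries of zebrafish larvae, 1 GFP(+) and 1 GFP(−), were compared. Per the study's methods and the submitters' processing notes, the authors aligned reads to Zv9 with TopHat, counted them per Ensembl gene with HTSeq, quantile-normalized the counts and set a floor of 20 reads (tool versions are not given in the sources used here). The name of the deposited table gives the floor before the normalization, and many genes share tied GFP(+) places from 20 to 48 reads, so low GFP(+) values may be floored genes. The deposited values are this normalized read signal per gene, and they are no raw counts. No count model was used because the values are no whole reads and each population has 1 library.

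The log2 ratio of GFP(+) to GFP(−) was computed per gene with no pseudocount, using Python 3.11.15, numpy 2.4.6 and pandas 2.3.3, and figures were drawn with matplotlib 3.10.9. A gene counted as called at 2-fold or more. Names came from an identifier table of Ensembl gene names for 105 of the 111 genes and from the deposited symbol alone for 6. Gene lists were matched to the same names. The summaries were run on shuffled deposited ratios with a known shift added, which checks only their arithmetic.

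The genes, lists and comparisons were chosen with earlier results of these data known. The text names every mitochondrially encoded gene, the extremes and the largest means of each complex, every gene at least 2-fold different with both values above 48, all copies of duplicated subunits, core subunits and tissue isoforms, and the highest and lowest gene of each list, except 1 gene that is not reported here. Alternatives covered the pseudocount, filters on low values, centring, the source of names, summed copies, the fold and the members. Sequences and promoter motifs were not analysed here, and coordinates were not used.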

Additional observations from a re-analysis of the deposited data

How the results depend on the processing

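No paired analysis was possible because each population has 1 library, and for the same reason no replicate could be left out. Of 134 values recomputed under alternatives, 96 stayed near the reported value, 31 moved and 7 reversed. Near meant a shift under 0.2 for a median log2 ratio and a factor of up to 1.5 for a count. Some values could not move: centring shifts each median by 0.10 and can only change its sign. Several filters also left all genes of a group in place. The 96 therefore do not measure how stable the results are. All 7 reversals were of the median log2 ratio of complex V, reported as −0.07. It was 0.093 with a mean of at least 100 reads, above the floor in both libraries, or with names from the identifier table only, 0.024 with low GFP(+) values set to 48, 0.028 centred on all genes, 0.27 with copies summed and 0.43 from neighbours in the list.

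The next 4 alternatives were chosen after seeing the data. Neighbours in the list were taken at all read levels. The neighbours gave medians of 0.73 for all genes (reported 0.48), 0.67 for nuclear subunits (0.39), 0.89 for complex II (0.34), 0.80 for complex III (0.41), 0.68 for complex IV (0.16), 2.31 for mitochondrially encoded genes (1.13) and 0.95 for genes that are not subunits (1.18). A mean of at least 1000 reads gave 0.27 for all genes, 0.020 for nuclear subunits and 1.07 for complex I (0.68), with 12 genes at least 2-fold higher (30) and 0 lower (3). The complex I value rests on 12 genes, among them its 7 mitochondrially encoded genes. Without the mitochondrially encoded genes 19 were at least 2-fold higher, and without MT-CO1 alone their median was 1.16.

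Deposited symbols alone cover 17 of the genes, with a median of 0.77. They gave medians of 0.81 for 14 nuclear subunits, 0.90 for 7 genes of complex I and 1.02 for 2 genes of complex IV. For 4 genes of complex V the median was −0.48, and for 3 genes that are not subunits it was 0.62. Of the 17 genes, 5 were at least 2-fold higher and 1 lower. A pseudocount of 100 left 18 at least 2-fold higher and 1 lower and a median of 0.84 for genes that are not subunits. At 3-fold, 6 were higher. At a mean of at least 100 reads 1 was at least 2-fold lower, and with copies summed 0. The share of reads held by all genes, 8.72% in GFP(−) and 10.4% in GFP(+), was 0.659% and 0.672% without the mitochondrially encoded genes, and 1.26% and 1.36% without the 100 largest values. The causes of these shifts were not tested, and the depth of the libraries, which would limit the low values, is unknown.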
